A study of Mus musculus with 6 samples.

Results

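The genes described here encode the Ddx and Dhx RNA helicases. Members were all genes whose array name began with Ddx or Dhx followed by a number, with Ddx4, Ddx3y and Ddx58 left out. This gave 51 genes, 35 Ddx and 16 Dhx, measured by 73 of the 55681 probes on the array, and 50 of them passed the filter on dim probes and were tested among 21562 genes. The 3 genes left out, and the setting apart of chromosomes 1, 8, 10 and 11, were selected on the TKO and WT differences of these arrays, so the splits by family and by chromosome are descriptions with no test.

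RNA was measured in mouse embryonic stem (ES) cells, the cultured counterpart of the early embryo's pluripotent cells. There were 3 dishes of TKO cells, triple knockouts of Tet1, Tet2 and Tet3 derived from the WT line, and 3 dishes of that WT line, BJ FF2 ES. Both genotypes were grown side by side in 2i medium, which blocks signals that drive differentiation, on inactivated mouse embryonic feeder cells, and were moved to matrigel without feeders before collection. Each dish gave 1 RNA sample on 1 one-colour Agilent array. The labels do not say how many TKO clones were used, and the dishes come from 1 WT line and its TKO derivative, so p-values measure the spread between these dishes only.

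Ddx and Dhx proteins share a core that binds RNA and burns ATP, and they are named in one-letter code after the amino acids of a conserved ATPase motif, Asp-Glu-Ala-Asp (DEAD) and Asp-Glu-Ala-His (DEAH). DEAD-box proteins typically pry apart short RNA duplexes locally, whereas DEAH-box proteins move along a strand and pull RNA or bound proteins out of a complex, in several cases helped by partners with a G-patch domain. Fast-growing cells use them to build ribosomes, to drive and proofread splicing, and to export, translate and degrade mRNA. The Tet enzymes, absent by design in TKO cells, oxidise methylated cytosine in DNA.

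A level here means the log2 signal minus that of the 75th percentile probe on its array, and a difference is TKO minus WT on that scale, so 1 unit is a 2-fold change. Levels of different probes are not comparable with each other. The Tet genes were read first. The 3 Tet1 probes were lower in TKO cells by 1.37, 1.37 and 1.16 log2 units, and 2 of 3 Tet2 probes were lower by 3.23 and 2.94. The other Tet2 probe differed by -0.43 (adjusted p = 0.111). The 1 Tet3 probe that passed the filter differed by -0.24 (adjusted p = 0.0904). The altered exons are not given in the sources used here, so a probe outside the altered part would not check the genotype.

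On each array 51.9% to 58.5% of probes were well above background and none of the spots was saturated. Arrays correlated at r = 0.994 to 0.995 among TKO dishes and 0.997 to 0.9975 among WT dishes, against 0.9634 to 0.9669 between genotypes. All 10 ES cell markers examined were well above background on each array, and their summed linear level was 647.2 to 703.3 in TKO dishes and 922.3 to 992.7 in WT dishes. Zfp42 alone was 16.8-fold lower in TKO cells, 6 other ES markers were lower, Utf1 and Dppa5a did not pass, and Lin28a was higher by 0.29. Feeder fibroblast markers summed to 37.68 to 40.59 in TKO dishes and 30.25 to 30.86 in WT dishes, with 12 or 13 of 14 well above background. Of the 12 tested fibroblast markers 8 were higher and Pdgfrb was lower by 2.26. The called share was 80% of the ES markers and 75% of the tested fibroblast markers, against 59.7% of all tested genes. Sums of linear levels weigh bright probes most. Of the fibroblast markers, Lum was well above background on 0 arrays and Fap on 1 TKO and 1 WT array. Neither sum overlapped between the genotypes, and their part in the results below was not tested. In RNA from whole dishes, fewer cells of a kind and less RNA per cell cannot be told apart.

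More helicase genes were higher in TKO cells than lower, and all but 2 of the differences were under 2-fold. At an adjusted p under 0.05, 26 of the 50 tested helicase genes were higher in TKO cells and 12 were lower, while 12 did not pass. Of the 26, 3 had another probe past the threshold in the opposite direction (Ddx5, Ddx17 and Ddx39b), which leaves 23. Over all tested genes the called share was 59.7%, with 30.0% higher and 29.7% lower. Only Ddx21 and Dhx34 differed by at least 2-fold, which is 4% of the members, where 13.7% of all tested genes did. The 3 TKO values lay wholly above or below the 3 WT values for 44 of the 50 members, against 67.6% of all tested genes. Because the members and chromosomes were picked with this contrast in view, nothing is read from these shares.

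The direction of the small differences depends on the scaling, and so does the order of the large ones. When each array was centred on its median in place of its 75th percentile, the median of all genes moved from -0.01 to -0.21 log2 units, and 11 members were then called higher and 17 lower. Under that centring the called genes of the whole array split as 3827 higher and 9488 lower, against 6464 higher and 6398 lower with the 75th percentile. Ddx18 (-1.09) and Ddx19a (-1.06) then passed 2-fold, while Ddx21 (0.88) and Dhx34 (0.82) did not. The arrays lay in rows of 1 slide. With the array row as a block, 18 members were higher and 10 lower, beside 5379 higher and 5188 lower of the 21562 tested genes. With the first row alone, which held 1 TKO array and the 3 WT arrays, none of the 38 called members changed sign. Ddx3x, Ddx6 and Ddx49 were among the calls that the first row alone ended. Median centring shifts all genes of an array by the same amount, so distances to the median of all genes cannot test the scaling. That distance was 0.05 for the median Ddx gene and 0.26 for the median Dhx gene under both scalings. With no filter on dim probes, where the median of all genes was 0.138, it was -0.095 for Ddx and 0.112 for Dhx.

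Genes named Dhx stood higher than genes named Ddx, a split made by gene name and not by the motif of each protein. Of 16 Dhx genes, 12 were higher in TKO cells, 1 was lower and 3 did not pass, with a median difference of 0.25 (0.05 with median centring). Of 34 Ddx genes, 14 were higher (11 without those with opposed probes), 11 were lower and 9 did not pass, with a median of 0.04, which turned to -0.16 with median centring. Over all tested genes the median was -0.01, with 30.0% called higher and 29.7% lower. Set against the WT mean, the median Dhx gene stood at 0.24, 0.25 and 0.27 in the 3 TKO dishes, and at 0.00, -0.05 and 0.03 in the WT dishes. The median Ddx gene stood at 0.05, 0.03 and 0.02 in the TKO dishes, and at 0.00, -0.02 and 0.02 in the WT dishes. On the scale used for levels here, the genotypes thus overlapped for Ddx and were apart for Dhx. Median centring shifts each array by its own amount, and the dish values were not compared under it. Whether the overlap for Ddx and the gap for Dhx hold with median centring was therefore not tested.

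**Figure D1:**
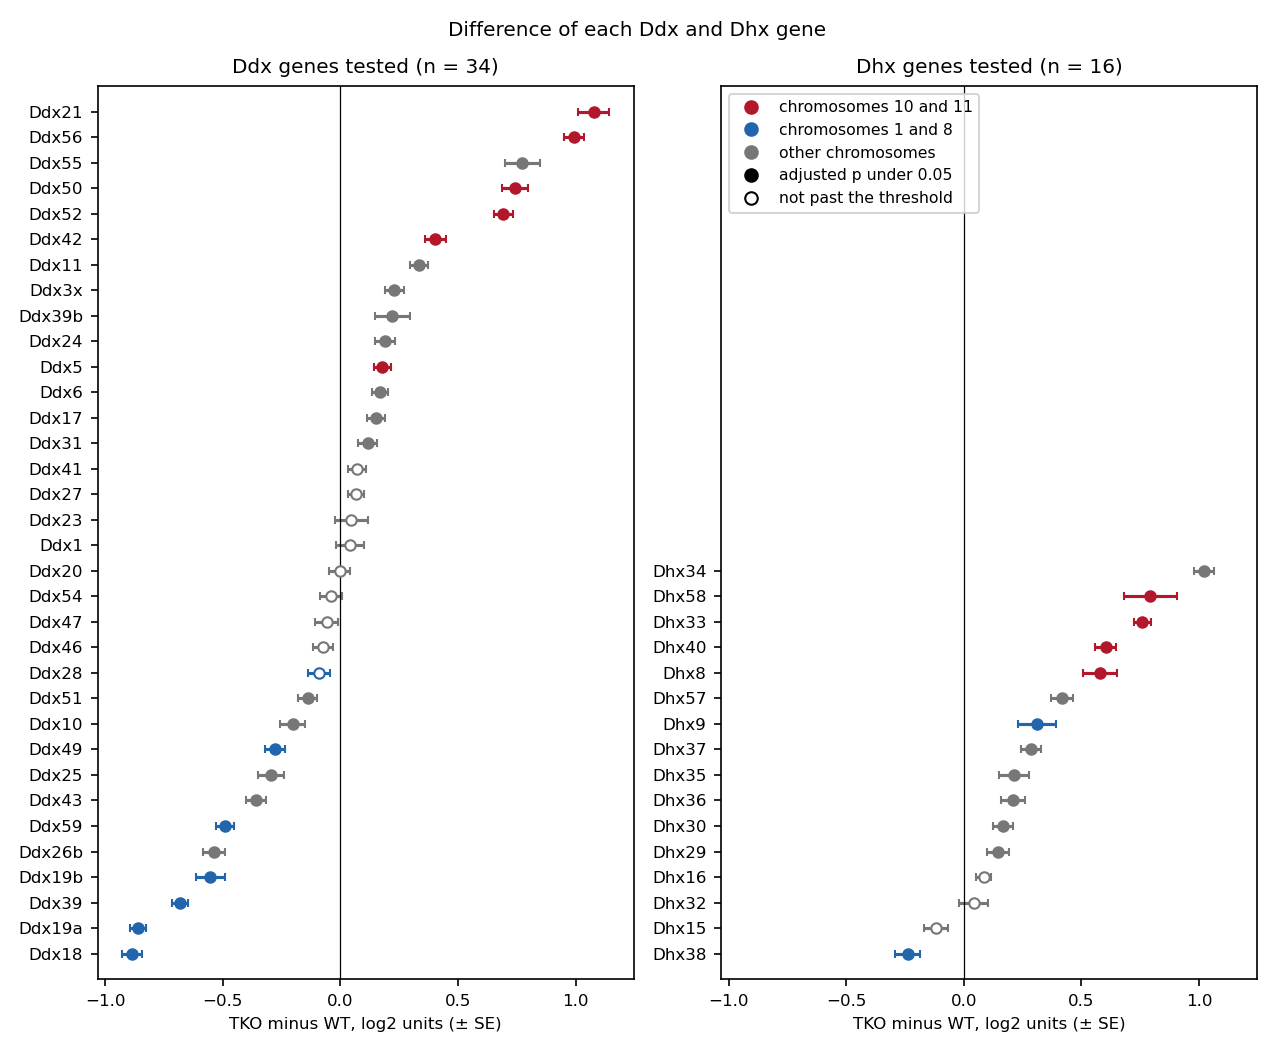
Difference (TKO minus WT, log2 units, point with SE, 3 TKO and 3 WT dishes) of each tested Ddx gene (left, 34 genes) and Dhx gene (right, 16 genes), coloured by chromosome group, with filled points past an adjusted p of 0.05. The 10 genes on chromosomes 10 and 11 lie above 0 and 8 of the 9 on chromosomes 1 and 8 below it; with median centring Ddx5, on chromosome 11, falls below 0.

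Helicases of ribosome assembly held the strongest rises in the Ddx family. Of 16 such genes 9 were higher in TKO cells, 4 were lower and 3 did not pass, with a median of 0.15. The called share was 81.2%, against 59.7% of all tested genes. The gene with the largest difference of all members was Ddx21, a nucleolar helicase that serves rRNA transcription and processing, read by a probe at chr10:62044862-62044921 (mm9). Its level was 3.79, 4.01 and 3.98 in TKO dishes, against 2.86, 2.83 and 2.87 in WT dishes. The groups were far apart, and the difference of 1.08 ± 0.07 (SE) was a 2.11-fold rise (adjusted p = 6.59e-05). A further Ddx21 probe gave 0.89.

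Ddx50, the close relative of Ddx21 and its neighbour 41 kb away on chromosome 10, rose as well. Its level was 1.16, 1.07 and 1.16 in TKO dishes, against 0.30, 0.42 and 0.44 in WT dishes. The difference was 0.74 ± 0.06 (adjusted p = 1.27e-04), with no overlap of the groups. Both genes lie close to Tet1 on the same chromosome, Ddx21 at 230 kb and Ddx50 at 189 kb between probes. The brightest Tet1 probe, lower by 1.37, moved the opposite way.

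Ddx56, a factor of large-subunit assembly on chromosome 11 (chr11:6159199-6159258), rose nearly as far as Ddx21. It stood at 4.00, 4.01 and 4.02 in TKO dishes, against 3.06, 2.96 and 3.04 in WT dishes. The rise was 0.99 ± 0.04 log2 units, or 1.99-fold (adjusted p = 1.68e-05). Also on chromosome 11 were Ddx52, whose yeast counterpart acts on the small subunit, and Dhx33, which has been tied to rRNA transcription. Ddx52 had 4.05, 4.10 and 4.04 in TKO dishes, against 3.40, 3.32 and 3.40 in WT dishes (difference 0.69 ± 0.04, adjusted p = 5.26e-05). Dhx33 had 3.22, 3.27 and 3.29 in TKO dishes, against 2.51, 2.51 and 2.49 in WT dishes (difference 0.76 ± 0.04, adjusted p = 2.50e-05). In both genes the 3 TKO values lay above all WT values.

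A gene outside the 4 chromosomes set apart also rose strongly. Ddx55, whose yeast counterpart acts on the large subunit, lies on chromosome 5 and stood at -0.83, -0.99 and -0.98 in TKO dishes, against -1.80, -1.59 and -1.74 in WT dishes. The difference was 0.77 ± 0.07 (adjusted p = 3.47e-04), and the groups did not overlap. Dhx37, which frees the U3 small nucleolar RNA during small-subunit assembly and lies 877 kb from Ddx55, rose by 0.29, but by 0.09 with median centring, which did not pass (adjusted p = 0.35). Ddx24 and Ddx31, whose yeast counterparts act on the large subunit, were called higher at 0.19 and 0.12, and both turned to below 0, at -0.01 and -0.09, with median centring. The call of Ddx31 ended on leaving out any array but TKO replicate 2 (adjusted p = 0.0826 to 0.118).

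The lowest difference of any member also belonged to this group. Ddx18, a nucleolar factor of ribosome assembly, lies on chromosome 1 (chr1:123450472-123450531). It stood at 4.69, 4.63 and 4.71 in TKO dishes, against 5.55, 5.53 and 5.61 in WT dishes. That is a difference of -0.89 ± 0.04, which left 54.1% of the WT level (adjusted p = 2.76e-05). The other Ddx18 probe gave -0.88 but shares 58 bases with the first, so it is hardly a separate reading. Ddx49, on chromosome 8, whose yeast counterpart acts on the small subunit, had 2.50, 2.47 and 2.48 in TKO dishes, against 2.78, 2.69 and 2.81 in WT dishes, with a difference of -0.28 ± 0.04 (adjusted p = 0.00257). Ddx10 and Ddx51 were lower by 0.20 and 0.14, while Ddx27, Ddx47 and Ddx54 did not pass, with differences of 0.07, -0.06 and -0.04. The call of Ddx10 ended without TKO replicate 1 (adjusted p = 0.0509), WT replicate 1 (0.0509) or WT replicate 3 (0.0536), and that of Ddx51 without TKO replicate 1 or 3 or WT replicate 1 or 3 (0.0513 to 0.0795).

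Genes of the small-subunit processome, the large particle that folds and cuts the early rRNA precursor, mostly did not pass the threshold. Several of the helicases above act elsewhere, on the large subunit or in rRNA transcription. Of 28 processome genes 5 were higher in TKO cells, 6 were lower and 17 did not pass, with a median of 0.00. Thus 39.3% were called, against 59.7% of all tested genes. The largest rises were those of Nol10 (0.64) and Imp4 (0.56), and the largest falls those of Wdr75 (-0.62) and Mphosph10 (-0.54).

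Splicing helicases were divided: by the brightest probe 7 of 15 were called higher, 2 lower and 6 did not pass. Without Ddx5, Ddx17 and Ddx39b, whose probes disagree as given below, 4 were higher. The median difference of the 15 was 0.08, and 60% of them were called, close to the 59.7% of all tested genes. Dhx40, a DEAH-box protein on chromosome 11, had the largest rise. It stood at 4.92, 4.84 and 4.82 in TKO dishes, against 4.27, 4.21 and 4.28 in WT dishes, and the groups were well apart. The difference was 0.60 ± 0.04 (adjusted p = 1.24e-04), and another Dhx40 probe gave 0.61. Dhx8, which releases the finished mRNA from the spliceosome, had 2.91, 3.06 and 3.11 in TKO dishes, against 2.51, 2.35 and 2.48 in WT dishes (difference 0.58 ± 0.07, adjusted p = 0.00109). Ddx42, first found with the U2 snRNP, had 4.03, 3.93 and 3.92 in TKO dishes, against 3.53, 3.56 and 3.58 in WT dishes (difference 0.40 ± 0.04, adjusted p = 6.08e-04), and did not pass with median centring (0.20, adjusted p = 0.0894). Both lie on chromosome 11 and neither overlapped between genotypes.

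On chromosome 8, Ddx39 and Dhx38 fell. Ddx39, now named Ddx39a, is a near twin of the splicing and export factor Ddx39b. Its level was 5.89, 5.95 and 5.92 in TKO dishes, against 6.62, 6.59 and 6.60 in WT dishes, a difference of -0.68 ± 0.04 that left 62.3% of the WT level (adjusted p = 3.38e-05). Dhx38, which remodels the spliceosome before its second chemical step, had 1.54, 1.40 and 1.52 in TKO dishes, against 1.74, 1.67 and 1.77 in WT dishes (difference -0.24 ± 0.05, adjusted p = 0.0101). Both genes had all TKO values below the WT values, and Dhx38 did not pass with the array row as a block (-0.19, adjusted p = 0.0935).

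The other catalytic helicases of the spliceosome moved little. Dhx15, which takes spliceosomes apart after splicing, had 2.58, 2.61 and 2.60 in TKO dishes, against 2.72, 2.63 and 2.78 in WT dishes. Its groups did not overlap, yet the difference of -0.12 ± 0.05 did not pass (adjusted p = 0.089), and passed without WT replicate 2 (-0.16, adjusted p = 0.0364). Ddx23, which is needed to activate the spliceosome, and Dhx16, which works just before the first step, did not pass either (0.05 and 0.08). Ddx20 of the SMN complex, Ddx41 and Ddx46 stood at 0.00, 0.07 and -0.07. Dhx35 rose by 0.21 (0.01 with median centring), a call that ended on leaving out any array but WT replicate 3 (adjusted p = 0.0503 to 0.0842).

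Ddx5 and its relative Ddx17, which act in splicing, in transcription and with Drosha in microRNA processing, gave readings that depended on the probe. By its brightest probe Ddx5 stood at 4.50, 4.54 and 4.54 in TKO dishes, against 4.35, 4.32 and 4.38 in WT dishes. The difference of 0.18 ± 0.04 (adjusted p = 0.00713) turned to -0.02 with median centring and did not pass with the array row as a block (0.15, adjusted p = 0.0573). The array carries 4 Ddx5 probes, all on chromosome 11 on the minus strand (mm9) and each 60 bases long. Their first 30 bases, 5′ to 3′, are shown because the probes of this 1 gene did not move together, and each is named by the base of its listed transcript at which it starts.
start 326: agctgcccaaatttgagaagaatttttatc
start 648: ggggatggaggactagtgatcggctggctg
start 2248: caaaagtaactgtacagtgatttcaaatac
start 3422: aaattacctttgaagttttaaaagacagtc

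The probe starting at base 648 is designed to a separate Ensembl transcript, ENSMUST00000106778, and the other 3 to the RefSeq transcript of Ddx5. That separate probe read 0.15, 0.15 and 0.18 in TKO dishes, against -0.74, -0.67 and -0.72 in WT dishes, a rise of 0.87 ± 0.04 (adjusted p = 2.50e-05 over all probes). The probe at base 3422 read 4.09, 4.07 and 4.11 in TKO dishes, against 4.53, 4.62 and 4.64 in WT dishes, a difference of -0.51 ± 0.05 (adjusted p = 2.95e-04 over all probes). Probes at bases 326 and 2248 lay between, at 0.16 (adjusted p = 0.0599 over all probes) and 0.18. The probe of the separate transcript was thus higher in TKO dishes and the last probe of the RefSeq transcript lower, with no overlap for either.

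Ddx17 showed a smaller split. Its brightest probe had 6.23, 6.22 and 6.27 in TKO dishes, against 6.05, 6.13 and 6.08 in WT dishes (difference 0.15 ± 0.04, adjusted p = 0.0201), and turned to -0.05 with median centring. Its other probe, designed to a different RefSeq transcript, had -3.42, -3.45 and -3.42 in TKO dishes, against -3.37, -3.25 and -3.22 in WT dishes (difference -0.15, adjusted p = 0.0469 over all probes). The brightest Ddx39b probe read 6.80, 6.94 and 6.94 in TKO dishes, against 6.72, 6.54 and 6.75 in WT dishes (difference 0.22 ± 0.07, adjusted p = 0.0468), and another Ddx39b probe gave -0.35 (adjusted p = 0.00357 over all probes). Without TKO replicate 3, WT replicate 1 or WT replicate 3, the Ddx17 call ended (adjusted p = 0.0611 to 0.0657), as did that of Ddx39b without any array but TKO replicate 1 (0.0531 to 0.124). For Ddx5, Ddx17 and Ddx39b a single direction for the gene is therefore not given. Where paralogs are alike, as in Ddx5 and Ddx17, Ddx39 and Ddx39b, Ddx19a and Ddx19b, or Ddx21 and Ddx50, cross-hybridisation was not tested.

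**Figure D2:**
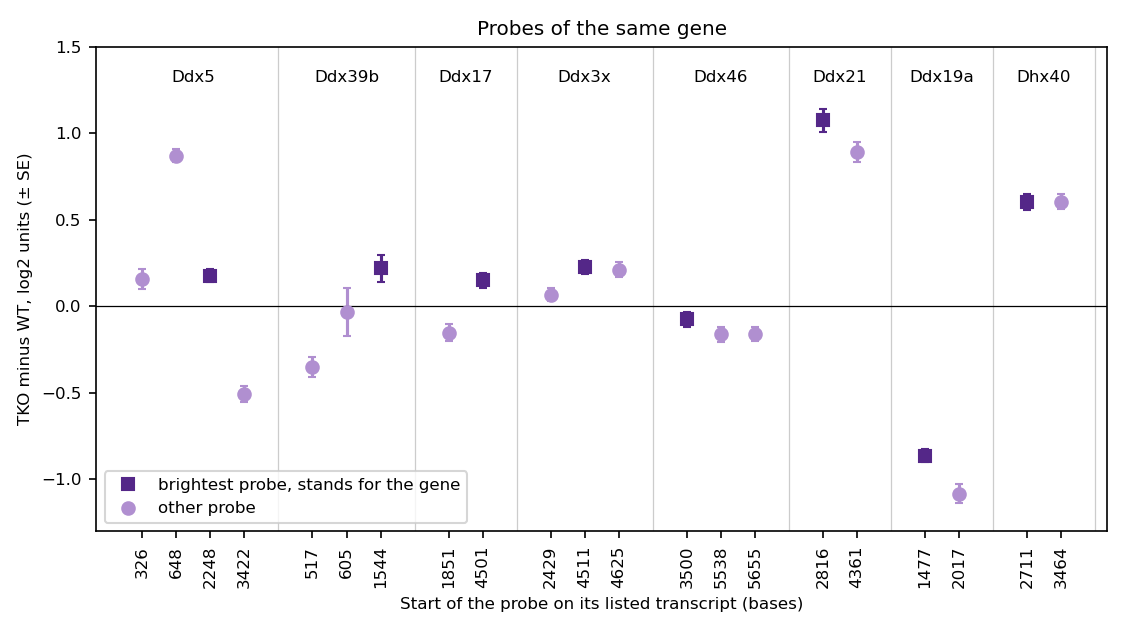
Difference (TKO minus WT, log2 units, with SE, 3 TKO and 3 WT dishes) of single probes of 8 helicase genes with more than 1 kept probe, ordered by where each probe starts on its listed transcript; dark squares mark the brightest probe, which stands for the gene. Ddx5 probes run from 0.87 to -0.51, whereas the 2 probes of Dhx40 sit at 0.60 and 0.61; the small positive values of Ddx5 and Ddx17 turn negative with median centring.

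Among partners of the splicing and export helicases, 2 differed by at least 2-fold. Of 13 genes of the exon junction and TREX complexes, which mark spliced mRNA and hand it to the export machinery, 6 were higher, 2 were lower and 5 did not pass, with a median of 0.22. Magohb, an exon junction core protein on chromosome 6, rose by 1.43 ± 0.04, and Casc3, the outer exon junction subunit on chromosome 11, by 1.03 ± 0.05. Gle1, which activates Ddx19 at the nuclear pore, fell by 0.29 and Thoc2 by 0.20. Of 18 G-patch genes, some of whose proteins switch on Dhx helicases, 7 rose, 3 fell and 8 did not pass (median 0.10). Called shares were 61.5% for exon junction and TREX genes and 55.6% for G-patch genes, near the 59.7% of all tested genes. Sugp1 (0.57) and Gpatch8 (0.54) rose most, and Pinx1 (-0.38) and Gpatch11 (-0.36) fell most. Among 3 microprocessor genes, Drosha rose by 0.23 and the others did not pass, so 33.3% were called, against 59.7% of all tested genes.

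Helicases of export, translation and decay held both strong rises and strong falls, as 6 of 11 rose, 4 fell and 1 did not pass (median 0.15). The share called was 90.9%, where 59.7% of all tested genes were. Dhx34, a factor of nonsense-mediated decay, which destroys mRNAs with premature stop codons, had the second-largest difference of the members. It lies on chromosome 7 (probe at chr7:16782628-16782687, mm9), away from the chromosomes set apart. The level was 1.84, 1.81 and 1.79 in TKO dishes, against 0.77, 0.85 and 0.76 in WT dishes, so the lowest TKO value stood far above the highest WT value. The rise was 1.02 ± 0.04 log2 units, or 2.03-fold (adjusted p = 1.55e-05). It was 0.94 with normexp background correction, 0.99 with the deposited values and 0.82 with median centring. A further Dhx34 probe was not well above background on any array.

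The paired nuclear-pore helicases Ddx19a and Ddx19b, 27.2 kb apart on chromosome 8, both fell. Ddx19a had 0.69, 0.67 and 0.70 in TKO dishes, against 1.54, 1.53 and 1.58 in WT dishes (difference -0.86 ± 0.03, 55.0% of the WT level, adjusted p = 1.42e-05), and its other probe gave -1.08. Ddx19b had 2.59, 2.41 and 2.41 in TKO dishes, against 3.04, 3.02 and 3.01 in WT dishes (difference -0.55 ± 0.06, adjusted p = 6.15e-04). Neither gene overlapped between genotypes. Ddx59, a chromosome 1 gene altered in a human orofaciodigital syndrome, had 0.58, 0.53 and 0.53 in TKO dishes, against 1.00, 1.03 and 1.08 in WT dishes (difference -0.49 ± 0.04, adjusted p = 1.64e-04). Ddx25, best known from the testis, was lower by 0.30.

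The well-studied translation factors rose only slightly. Ddx3x, an X-linked helicase that helps ribosomes onto structured mRNAs, had 5.44, 5.49 and 5.52 in TKO dishes, against 5.28, 5.23 and 5.24 in WT dishes (difference 0.23 ± 0.04, adjusted p = 0.00385). Ddx6, the P-body helicase that represses and helps decap mRNA, had 2.67, 2.66 and 2.62 in TKO dishes, against 2.49, 2.47 and 2.49 in WT dishes (difference 0.17 ± 0.03, adjusted p = 0.00759), which turned to -0.04 with median centring. Dhx36, which unwinds G-quadruplexes, had 2.49, 2.41 and 2.47 in TKO dishes, against 2.22, 2.19 and 2.33 in WT dishes (difference 0.21 ± 0.05, adjusted p = 0.0141). In these 3 genes the values did not overlap, and with median centring Ddx3x stood at 0.03 and Dhx36 at 0.01, neither past the threshold. Dhx36 did not pass with the array row as a block either (adjusted p = 0.0526). Dhx57 rose by 0.42, Dhx29, which binds the small ribosomal subunit at initiation, by 0.15 (-0.06 with median centring), and Ddx1 did not pass at 0.04. The call of Dhx29 ended on leaving out any array but TKO replicate 2 (adjusted p = 0.0801 to 0.118).

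Of 11 decapping partners of Ddx6, 5 rose, 3 fell and 3 did not pass, with a median of 0.08. That is 72.7% called, against 59.7% of all tested genes. Eif4enif1, which holds translationally silent mRNA, rose by 0.59 and the decapping cofactor Dcp1b by 0.31, while the decapping enzyme Dcp2 fell by 0.41 and its scaffold Edc4 by 0.31. Of 5 genes of the tRNA ligase complex that contains Ddx1, Fam98a rose by 0.19, Zbtb8os fell by 0.64 and 3 did not pass. Thus 40% of them were called, below the 59.7% of all tested genes.

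The remaining members fell into small sets. Dhx58, the cytoplasmic RNA sensor LGP2, lies on chromosome 11 and had -1.76, -1.87 and -2.04 in TKO dishes, against -2.81, -2.76 and -2.49 in WT dishes. Its rise of 0.79 ± 0.11 (adjusted p = 0.00177) came with the widest error among the large differences, though the groups did not overlap. With normexp background correction it was 0.41 (adjusted p = 8.23e-04). Dhx9, which unwinds structured RNA and has been tied to nucleic acid sensing, had -0.17, 0.02 and 0.12 in TKO dishes, against -0.33, -0.37 and -0.27 in WT dishes (difference 0.31 ± 0.08, adjusted p = 0.02), the only member on chromosomes 1 and 8 that was higher. That call ended without TKO replicate 2 (adjusted p = 0.0583), WT replicate 1 (0.0578) or WT replicate 2 (0.066), and the difference was 0.15 with the array row as a block (adjusted p = 0.144) and 0.11 with median centring. The single Ddx60 probe, for an antiviral helicase on chromosome 8, was not well above background on any array and was not tested.

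In mitochondria, Dhx30 rose by 0.17 (-0.03 with median centring). Ddx28, which helps assemble the mitochondrial ribosome, had 1.1, 1.15 and 1.08 in TKO dishes, against 1.18, 1.16 and 1.28 in WT dishes. Its difference of -0.09 ± 0.05 did not pass (adjusted p = 0.16). Ddx11, a DNA helicase of sister chromatid cohesion, rose by 0.34 (0.13 with median centring, adjusted p = 0.138), and Dhx32 did not pass at 0.04. The 2 members with no role assigned were both called lower by their brightest probes. Ddx26b, which is now named Ints6l and is a relative of an Integrator subunit rather than a typical helicase, had -0.61, -0.54 and -0.61 in TKO dishes, against -0.11, 0.01 and -0.04 in WT dishes (difference -0.54 ± 0.05, adjusted p = 2.50e-04). Its other, dimmer probe gave 0.32 (adjusted p = 0.533 over all probes), and the mean of both probes was -0.11 and did not pass (adjusted p = 0.647). Ddx43, a cancer-testis antigen, had 1.96, 1.91 and 1.87 in TKO dishes, against 2.27, 2.31 and 2.24 in WT dishes (difference -0.36 ± 0.04, adjusted p = 8.14e-04).

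**Figure D3:**
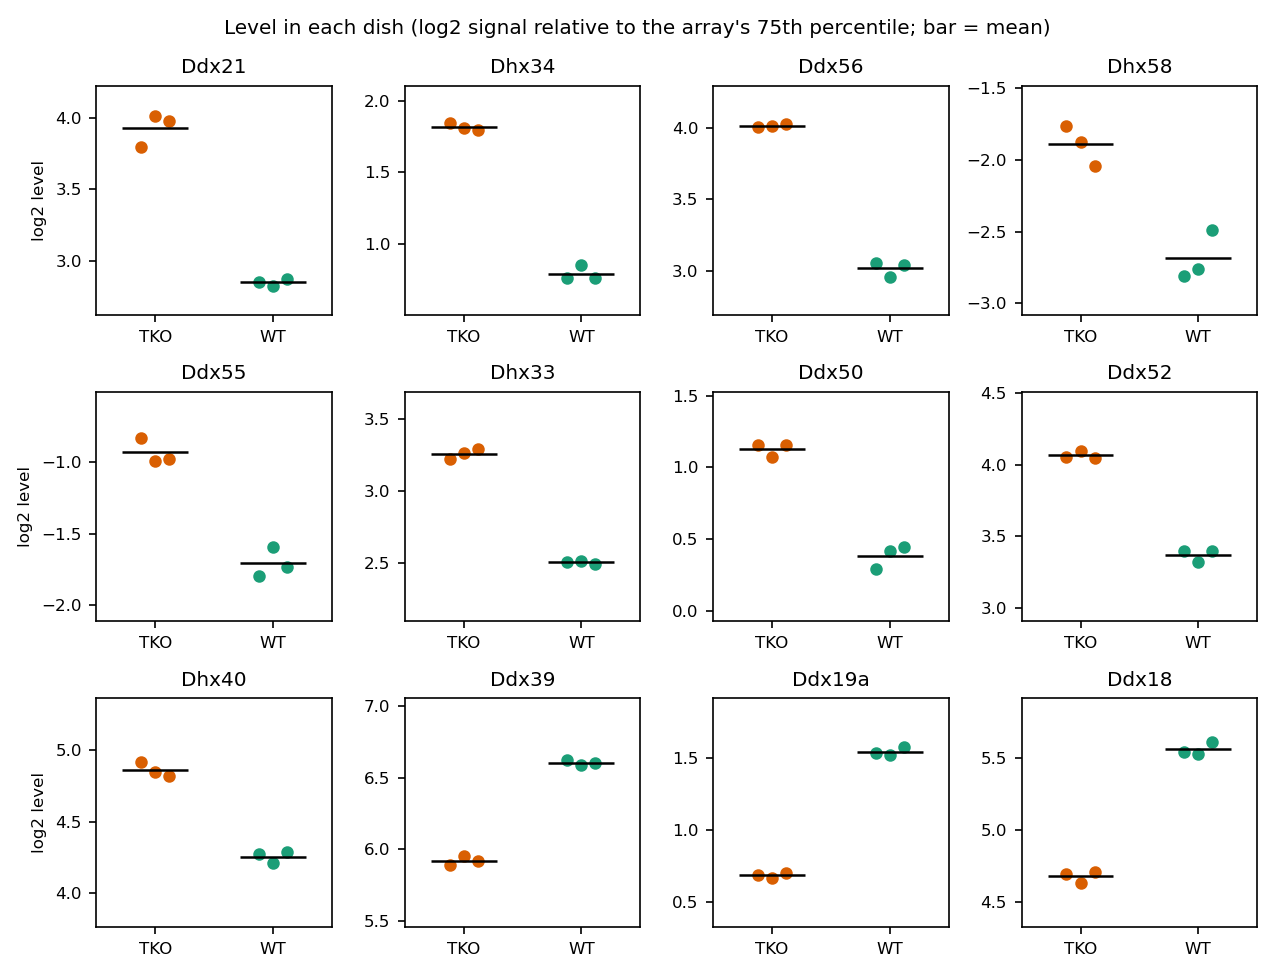
Level (log2 signal, 75th percentile of each array at 0) of the 12 called helicase genes with the largest differences, in the 3 TKO dishes (left) and the 3 WT dishes (right) of each panel, with the mean as a bar and panels ordered from the highest to the lowest difference. In each panel the TKO and WT points do not overlap; Ddx21, Dhx34 and Ddx56 show the largest rises, and Ddx19a and Ddx18 the largest falls.

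By chromosome the members are only described, since chromosomes 1, 8, 10 and 11 were set apart on differences of these same arrays. A shared direction there partly restates that choice. By their brightest probes all 10 members on chromosomes 10 and 11 were called higher in TKO cells, with a median of 0.72, and 47.8% of all tested genes there were. That share pools unlike chromosomes: 930 of 1616 tested genes were higher on chromosome 11, which holds 8 of the members, and 306 of 970 on chromosome 10. One of the 10 was Ddx5, which turned to -0.02 with median centring and had a probe at -0.51, and 9 were higher without it. Of 9 members on chromosomes 1 and 8, 7 were lower, 1 was higher and 1 did not pass, with a median of -0.49, and 44.6% of all tested genes there were lower. The 31 members on the other chromosomes had a median of 0.08, which turned to -0.12 with median centring, and 15 of them were higher (13 without Ddx17 and Ddx39b), 5 lower and 11 did not pass. Over all tested genes on those chromosomes 28.7% were higher and 29.1% lower. In the 3 TKO dishes the median member on chromosomes 10 and 11 stood at 0.70, 0.71 and 0.67 above the WT mean, and on chromosomes 1 and 8 at -0.43, -0.51 and -0.51.

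The median over all tested genes of a chromosome was shifted on chromosomes 11, 8 and 1, and not on chromosome 10, though stretches within a chromosome differed. Over all tested genes the median difference was 0.34 on chromosome 11, -0.22 on chromosome 8, -0.12 on chromosome 1 and -0.01 on chromosome 10, against -0.01 over the whole array. To set each helicase against its surroundings, its difference was compared with the median of the tested genes within 5 Mb on either side. The neighbours of Ddx21 and Ddx50 had a median of 0.52, those of Ddx56 0.40, and those of Ddx18 -0.52. On chromosome 1 the neighbours of Ddx59 and Dhx9 stood at 0.02 and 0.07. On chromosomes 10 and 11, 9 of the 10 members stood above their neighbours, by a median of 0.22 over the 10, with Ddx5 below by 0.19. On chromosomes 1 and 8, 7 of the 9 stood below their neighbours, with a median of -0.31, and Ddx28 and Dhx9 stood above. These counts include Ddx42 (0.029) and Dhx38 (-0.003), which lay within 1 SE of their neighbours. The share of all tested genes above or below their neighbours was not counted, so nothing is read from the counts. Copy number was not measured, and its part in the result was not tested.

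Away from those chromosomes the family difference was smaller. Of 10 Dhx genes there, 7 were higher, none was lower and 3 did not pass, with a median of 0.19. Of 21 Ddx genes there, 8 were higher (6 without Ddx17 and Ddx39b), 5 were lower and 8 did not pass, with a median of 0.05. These counts stand beside the 28.7% higher and 29.1% lower of all tested genes there. They depend on the scaling. With median centring only Dhx34 (0.82) and Dhx57 (0.22) of these Dhx genes were still called higher, and Dhx15 was called lower (-0.32, adjusted p = 0.0143). Of these Ddx genes only Ddx55 (0.57) was then called higher. The medians in the 3 TKO dishes were 0.22, 0.15 and 0.19 for Dhx, and 0.08, 0.04 and 0.03 for Ddx. Against their neighbours, 9 of these 10 Dhx genes and 12 of these 21 Ddx genes stood higher, by any amount. The same share over all tested genes was not counted, so nothing is read from these counts either.

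**Figure D4:**
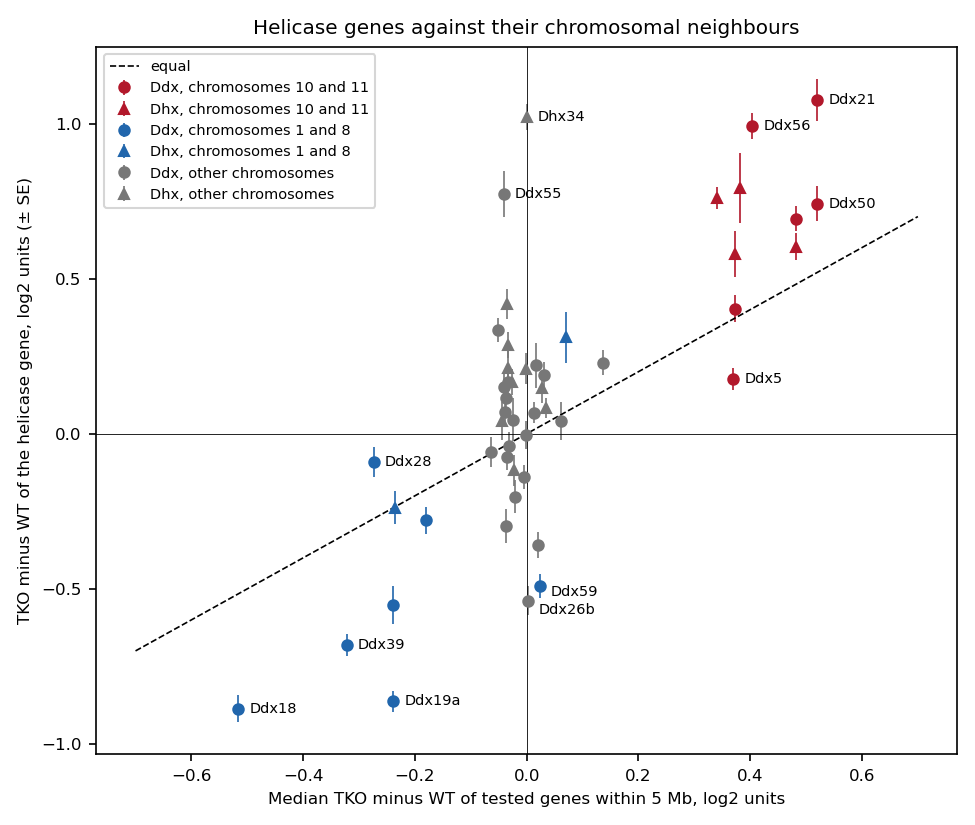
Difference of each tested helicase gene (TKO minus WT, log2 units, with SE, 3 TKO and 3 WT dishes) against the median difference of the tested genes within 5 Mb, with Ddx as circles, Dhx as triangles and the dashed line where both are equal. Ddx21 (1.08) and Ddx56 (0.99) lie above the line on raised chromosome stretches, whereas Dhx34 (1.02) and Ddx55 (0.77) rose where their neighbours stood near 0.

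Among members with a promoter window off the 4 chromosomes, Dhx34 and Ddx55 had the largest rises and Ddx26b and Ddx43 the largest falls. Their neighbours stood at 0.00, -0.04, 0.00 and 0.02. Ddx59 (-0.49), Dhx57 (0.42) and Ddx11 (0.34) also differed from neighbours near 0, at 0.02, -0.04 and -0.05. Because the Tet enzymes act on methylated cytosine in CG dinucleotides, the CG content of the members' promoters was counted in windows from 250 bases before to 50 bases after the start of the gene (RefSeq, GRCm38.p6). A window was found for 45 of the 51 members, and for the 9 with more than 1 the first listed was used. They held a median of 24 CG (4 to 41), against 7 over 27025 genes, and 40 of the 45 had at least 15 CG, as did 35.2% of all genes. The 27025 genes were not limited to those tested here, so a high CG count cannot be called particular to the helicases. The median was 25 for the 23 higher members with a window, 22 for the 10 lower ones and 24 for the 11 that did not pass, so these medians lay close together, and the other window was that of the untested Ddx60. The motif CACGTG, the same on both strands and holding a CG itself, was in 4 of the 45 windows (8.9%) and in the first window of 7.2% of all genes. With any window counted, 6 members held it, Ddx42 and Ddx5 being the added ones.

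The windows of the 2 largest rises and the 2 largest falls off the 4 chromosomes are shown, so that their CG content can be seen. They were chosen after the values were seen. Capitals mark each CG, the gene's strand is read 5′ to 3′, and no methylation was measured on these arrays. The windows lie at chr7:16221983-16222282 on the minus strand for Dhx34, chr5:124552614-124552913 on the plus strand for Ddx55, chrX:56454589-56454888 on the plus strand for Ddx26b and chr9:78395527-78395826 on the plus strand for Ddx43.
Dhx34: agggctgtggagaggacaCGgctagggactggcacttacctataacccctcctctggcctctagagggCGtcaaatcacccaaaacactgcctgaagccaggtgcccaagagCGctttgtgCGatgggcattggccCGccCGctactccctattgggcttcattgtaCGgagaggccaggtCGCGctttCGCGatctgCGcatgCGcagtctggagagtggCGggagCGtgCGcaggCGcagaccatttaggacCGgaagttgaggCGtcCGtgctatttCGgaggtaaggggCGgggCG
Ddx55: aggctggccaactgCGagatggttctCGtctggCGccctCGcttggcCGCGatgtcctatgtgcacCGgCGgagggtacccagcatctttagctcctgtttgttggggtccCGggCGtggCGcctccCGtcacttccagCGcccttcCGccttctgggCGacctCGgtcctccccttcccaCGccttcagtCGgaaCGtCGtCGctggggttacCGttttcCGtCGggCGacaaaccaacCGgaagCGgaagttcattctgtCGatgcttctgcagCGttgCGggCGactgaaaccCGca
Ddx26b: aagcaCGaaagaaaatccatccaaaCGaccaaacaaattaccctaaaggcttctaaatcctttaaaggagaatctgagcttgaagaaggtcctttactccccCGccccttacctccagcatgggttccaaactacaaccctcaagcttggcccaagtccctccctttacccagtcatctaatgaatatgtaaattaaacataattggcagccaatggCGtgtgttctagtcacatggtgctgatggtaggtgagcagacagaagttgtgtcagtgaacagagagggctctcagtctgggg
Ddx43: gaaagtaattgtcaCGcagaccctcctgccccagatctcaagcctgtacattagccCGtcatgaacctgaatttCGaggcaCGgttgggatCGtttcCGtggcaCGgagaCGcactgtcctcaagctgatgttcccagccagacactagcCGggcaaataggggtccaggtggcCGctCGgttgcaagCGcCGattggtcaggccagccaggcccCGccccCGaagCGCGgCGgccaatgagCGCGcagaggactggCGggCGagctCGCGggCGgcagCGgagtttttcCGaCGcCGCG

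Dhx34 has 23 CG in its window, Ddx55 has 32 and Ddx43 has 30, whereas Ddx26b has 4, the fewest among the first-listed windows. Another window of Ddx42 has 1 and another of Dhx32 has 4. The higher genes Dhx34 and Ddx55 and the lower gene Ddx43 thus all had at least 15 CG.

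Outside the Ddx and Dhx names, 4 RNA helicases differed by more than any member. Of 20 related genes tested 12 were higher in TKO cells, 4 were lower and 4 did not pass, with a median of 0.30. In all 80% were called, against 59.7% of all tested genes. Ascc3, a helicase of ribosome rescue and alkylation repair on chromosome 10, rose by 1.38 ± 0.06, and Helz on chromosome 11 by 1.12 ± 0.05. The germline piRNA helicases fell. Mov10l1 had -2.41, -3.01 and -2.78 in TKO dishes, against -0.84, -0.77 and -0.69 in WT dishes (difference -1.97 ± 0.16, adjusted p = 1.62e-04). Tdrd9, among the 4 counted as lower, was not well above background in any TKO dish and passed the filter only through the WT dishes. No p-value is therefore given for it. It was at least 2.24-fold lower in TKO dishes, a bound taken from the lowest signal that was well above background.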

How the data were processed

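Per the labels, 6 one-colour (Cy3) Agilent arrays were hybridised with total RNA from 3 TKO and 3 WT dishes, and per the file headers the probes are placed on mm9. The deposited intensity (gProcessedSignal) was background-subtracted by Agilent Feature Extraction 11.5.1.1, per the submitters' processing notes and the file headers, and the deposited flags (other, not a measurement) mark probes well above background. From these, log2 intensity minus each array's 75th percentile (366.9 to 412.9) was computed. The deposited log2 value table matched these values (r = 1 after rounding) with column medians of -3.74 to -4.03 and a 75th percentile at 0. Any centring of genes in it is not stated. It served as an alternative, and 0 columns of per-sample values were left unused.

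Control spots were left out, spots of 1 probe were averaged, and probes flagged well above background on 3 or more arrays were kept, with the brightest standing for a gene. All 21562 genes were fitted with limma 3.58.1 (R 4.3.3), two-sided, and p-values were adjusted by Benjamini-Hochberg over all genes at a threshold of 0.05. Probe-level values were adjusted over 30734 kept probes. The fit was tested on simulated data. The arrays were few, which limits precision. The members, the gene lists and the tests were chosen with earlier results of these data known. Genes named with values were the 12 largest called members, those on chromosomes 1, 8, 10 and 11, 6 well-studied members, members with opposed probes, untested members and up to 2 rising and falling genes per list. Ddx39b (opposed only within the list of probes) and the 4 promoter genes were added after values were seen. Symbols matched RefSeq for 49 members and through a synonym for 2. Arrays sat in rows of 1 slide: row 1 held TKO replicate 1 and the WT arrays, row 2 the other TKO arrays. Alternatives were another background correction, quantile and median scaling, other filters, the mean of probes, the deposited table, array row, replicate block and leaving out each array.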

Additional observations from a re-analysis of the deposited data

How the results depend on the processing

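Of the 50 tested members, 23 kept their call and direction in all 16 alternatives, among them the 12 with the largest differences. Median centring changed most: 11 members were higher, and the medians became -0.158 for Ddx, 0.048 for Dhx, -0.692 on chromosomes 1 and 8, 0.517 on 10 and 11, and -0.117 elsewhere. It turned the sign of Ddx17 (-0.0503), Ddx24 (-0.0127), Ddx31 (-0.0857), Ddx5 (-0.0245), Ddx6 (-0.0356), Dhx29 (-0.0556) and Dhx30 (-0.0338), by its own construction, since all genes shifted by the same amount on an array. Averaging a gene's probes reversed Ddx39b (-0.0541) and Ddx17 (-9e-06), whose probes disagree, took the Ddx median to 0.021 and ended the call of Ddx26b. Normexp gave 0.018 for Ddx, 0.219 for Dhx and 0.603 on chromosomes 10 and 11, quantile scaling 0.68 there, and the deposited values gave 0.015 for Ddx. With the array row as a block, or the first row alone (1 TKO array, assumed to vary like the WT arrays), the median was -0.431 on chromosomes 1 and 8 and 0.138 elsewhere. The row as a block left 18 higher and 10 lower. Leaving out each array gave 20 to 23 higher and 10 to 13 lower members, Ddx medians of 0.01 to 0.073, with the extremes without TKO replicate 1 and WT replicate 3, Dhx 0.221 to 0.277, -0.509 to -0.472 on chromosomes 1 and 8, 0.702 to 0.729 on 10 and 11, 0.081 to 0.11 elsewhere, and 11538 to 12465 called genes in all. Ddx31 lost its call in 12 alternatives and reversed in 1, Ddx39b in 11 and 1, Dhx29 in 9 and 1, and Ddx17 in 8 and 2. None of these reversed values passed the threshold. Dhx35 lost its call in 9, Ddx51 in 8, and Dhx9 and Ddx10 in 6. Ddx3x, Ddx5, Ddx6, Ddx11, Ddx24, Ddx42, Ddx49, Dhx30, Dhx36, Dhx37 and Dhx38 lost it in 1 to 3, and Ddx27, Ddx28, Ddx46, Ddx47, Ddx54, Dhx15 and Dhx16 gained one in 1 to 3. Same-numbered TKO and WT dishes did not deviate together (r = -0.0692, -0.024 and 0.0063), so the numbers do not pair them, and the replicate block gave 21 higher, 10 lower and 11619 called genes in all. Unfiltered, Ddx60 differed by 0.227 ± 0.483 (SE, adjusted p = 0.742). The cause of the other shifts was not tested. Signal over background limits Ddx60 and the second Dhx34 probe.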
